A study of Homo sapiens with 4 samples.

Results

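The type I and type II keratin gene clusters were described in the H3K4me3 peak lists of MDA-MB-231 cells with and without ARID1A. Members were all peaks of either list that overlapped chr17:38811000-39781000, the type I keratins with the keratin-associated proteins, or chr12:52562000-53347000, the type II keratins, in hg19 coordinates. There were 56 such peaks of 60265 in all: 30 of the 36677 control peaks and 26 of the 23588 knockout peaks. The type I window held 19 control and 8 knockout peaks, and the type II window held 11 and 18. H3K4me3, trimethylation of lysine 4 of histone H3, is a mark of active promoters. It was mapped by immunoprecipitating micrococcal nuclease-digested chromatin and sequencing the recovered DNA. MDA-MB-231 is an established triple-negative breast cancer cell line, and ARID1A is a subunit of SWI/SNF, a complex that remodels chromatin and that ARID1A helps to hold on DNA. The labels give no treatment and 2 groups: control cells and cells with ARID1A knocked out, each with 1 immunoprecipitate and 1 input library (4 in all). How the knockout was made, and whether it is 1 clone or a pool, is not stated by the labels. With 1 library per group there is no replicate to check a difference between control and knockout, and no p-value is given.

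Keratins are the intermediate filament proteins of epithelial cells and form filaments as pairs of 1 type I and 1 type II chain. Simple, gland-forming epithelia use KRT8 and KRT18, often with KRT7 and KRT19. Basal cells of stratified epithelia use KRT5 and KRT14, the differentiating epidermis uses KRT1 and KRT10, and hair keratins with keratin-associated proteins build the hair shaft. KRT18 is a type I keratin by sequence but lies beside KRT8 at the distal end of the type II cluster. Distal here means towards the higher coordinate. In the RefSeq order of genes (assembly GRCh38.p14, used for names, order and promoter sequence alone), the listed genes of the type II cluster run from KRT80 and KRT7 through the hair keratins KRT86, KRT81, KRT83, KRT85, KRT84 and KRT82. They continue with KRT75, KRT6B, KRT6C, KRT6A, KRT5, the inner root sheath keratins, KRT2, KRT1, KRT77, KRT76, KRT3, KRT4, KRT79 and KRT78, and end with KRT8 and KRT18. The type I cluster runs from KRT222 and KRT24 through the inner root sheath keratins KRT25 to KRT28, KRT10, KRT12, KRT20, KRT23, KRT39 and KRT40. The 34 protein-coding keratin-associated protein genes follow, then the hair keratins KRT33A to KRT36, KRT13, KRT15, KRT19, KRT9, KRT14, KRT16 and KRT17. No gene positions in the build of the peaks were used, so peaks were placed by coordinates, and which gene lies under a peak was not analysed here, except that the definition of the window puts KRT18 and KRT8 at its distal end.

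Promoter sequences of the clusters are shown for genes with different places in that order, since the mark is known to be strongest at promoters rich in CG dinucleotides. Each is the 250 bases before 1 start that RefSeq gives for the gene, 5′ to 3′ on the strand of the gene. CG dinucleotides and the letters TATAAA (or TTTATA, the same on the other strand) are in capitals. KRT8 comes from the distal end of the type II cluster, KRT5 and KRT71 from its middle, KRT10 from the type I keratins and KRTAP4-2 from the keratin-associated proteins. They are examples and do not stand for all genes of their part. Other starts of these genes, where there are any, were not examined.
KRT8: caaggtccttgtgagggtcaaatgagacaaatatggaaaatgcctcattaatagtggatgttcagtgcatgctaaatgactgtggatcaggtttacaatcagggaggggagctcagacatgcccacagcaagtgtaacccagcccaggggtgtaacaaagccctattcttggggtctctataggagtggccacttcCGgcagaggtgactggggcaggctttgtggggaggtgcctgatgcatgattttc
KRT5: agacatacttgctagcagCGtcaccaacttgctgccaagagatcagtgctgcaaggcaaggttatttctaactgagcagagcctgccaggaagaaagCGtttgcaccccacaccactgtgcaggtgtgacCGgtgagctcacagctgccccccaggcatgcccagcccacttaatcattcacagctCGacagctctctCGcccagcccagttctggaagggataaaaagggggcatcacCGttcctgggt
KRT71: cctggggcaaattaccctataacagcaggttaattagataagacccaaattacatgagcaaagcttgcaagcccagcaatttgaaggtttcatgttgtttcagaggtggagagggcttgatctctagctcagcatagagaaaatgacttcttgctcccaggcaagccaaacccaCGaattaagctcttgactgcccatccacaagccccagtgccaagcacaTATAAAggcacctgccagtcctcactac
KRT10: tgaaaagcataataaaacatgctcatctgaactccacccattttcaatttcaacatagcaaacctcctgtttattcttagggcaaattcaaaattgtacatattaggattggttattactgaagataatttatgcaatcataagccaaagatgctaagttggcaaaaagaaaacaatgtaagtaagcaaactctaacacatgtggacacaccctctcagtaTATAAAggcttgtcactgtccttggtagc
KRTAP4-2: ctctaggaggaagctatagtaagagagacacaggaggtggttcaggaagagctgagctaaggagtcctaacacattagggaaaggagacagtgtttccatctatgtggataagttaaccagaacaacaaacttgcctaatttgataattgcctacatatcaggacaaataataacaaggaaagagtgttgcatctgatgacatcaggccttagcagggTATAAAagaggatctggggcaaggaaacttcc
The KRT8 stretch holds 1 CG, the KRT5 stretch 6, the KRT71 stretch 1, and those of KRT10 and KRTAP4-2 hold 0. The letters TATAAA stand near the end of the KRT71, KRT10 and KRTAP4-2 stretches and are in neither KRT8 nor KRT5.

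CG dinucleotides were also few in most of the other promoters at hand. RefSeq promoter windows of 300 bases (250 before and 50 after the start) were at hand for 67 of the 89 listed genes, with 71 starts. They held between 0 and 11 CG, with a median of 2, against a median of 14 and quartiles of 4 and 28 over all 35116 windows of the table. Only KRTAP17-1, with 11, reached 10 CG, which is 1 of 71 windows (1.41%) against 56.4% of all windows. The letters TATAAA, on either strand, were in 50 of the 71 windows (70.4%) against 11.5% of all windows. By list they were in 29 of 33 windows of keratin-associated protein genes, 4 of 4 of the type I inner root sheath keratins and 9 of 14 of the type I hair keratins. In the type II epithelial keratins they were in 2 of 7. Windows were at hand for 5 of the 13 type I and 7 of the 16 type II epithelial keratins and for 33 of the 34 keratin-associated protein genes. The counts thus say little of epithelial keratins or of the ends of the type II cluster. At its proximal end none was made for KRT80, KRT7, KRT86, KRT81 and KRT83, and at its distal end none for KRT18. In the distal part of the type I cluster none was made for KRT13, KRT15, KRT19, KRT14, KRT16 and KRT17. These are counts of letters in a fixed window and not measured sites.

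**Figure D1:**
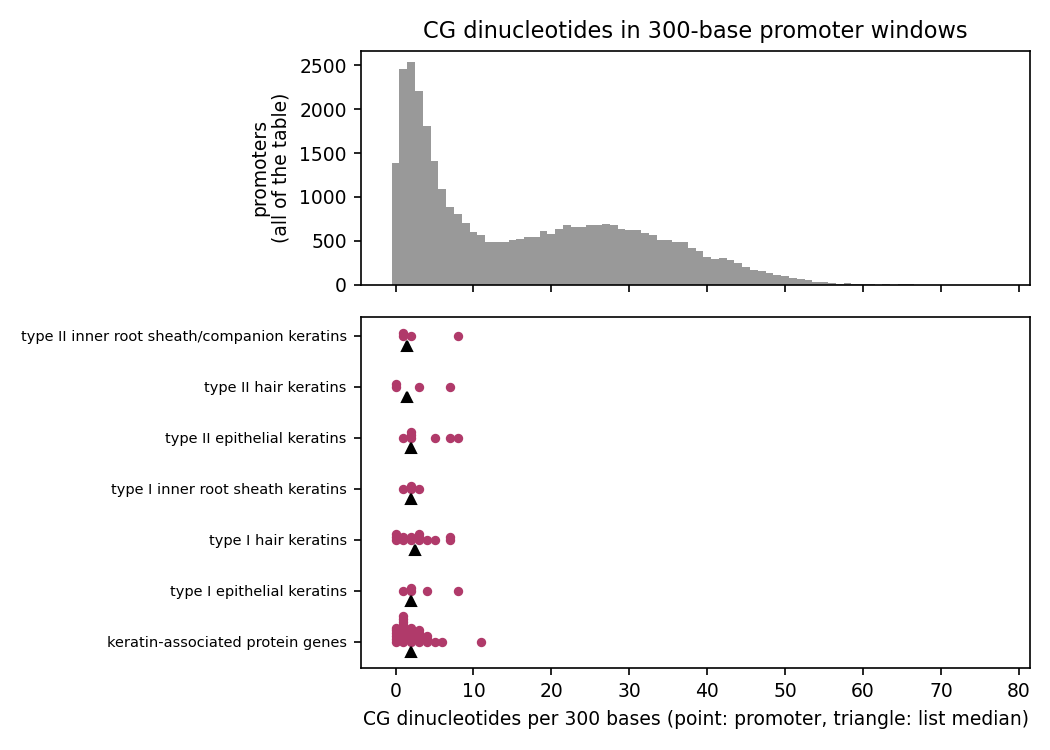
Number of CG dinucleotides in 300-base promoter windows, as a histogram of all 35116 windows (top) and as 1 point per window for each list of the keratin clusters with the list median as a triangle (bottom). The points of the clusters lie between 0 and 11, at the low end of the histogram.

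The 4 libraries differed in depth and in the shape of their peaks, which bears on each value below. The control immunoprecipitate held 27748061 tags and the knockout immunoprecipitate 13391724, with 14878873 and 17890122 in the inputs. The median peak was 2968 bp wide with 168 tags in the control list and 300 bp wide with 419 tags in the knockout list. A width of 300 bp, the fragment length set in the peak caller, was found for 55.0% of all knockout peaks and for 18 of the 26 in the clusters (69.2%). Intervals are exact and cover counting error only, and copies of 1 fragment would count as separate tags. The knockout peak chr12:53298038-53299427, with 3523 tags over 1390 bp (2535 per kb), held more than 1 tag per base and strand. So did chr12:53135200-53135499, with 938 tags over 300 bp (3127 per kb). The same was true of chr17:39704229-39704682, with 1325 tags over 454 bp (2919 per kb). Tags that start at the same base were thus counted more than once in each of these peaks. Whether they were copies of 1 fragment was not tested, and the intervals take tags as independent. The labels of 3 libraries give the cell line with other final numbers than the series title, and the header of the knockout list calls its library K6.

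The marked parts of the type II cluster were its ends. The 11 control peaks fell into 7 within the first 143 kb and 4 within the last 83.0 kb, and the 559 kb between them held no control peak. That empty stretch, chr12:52704952-53264045, took up 71.2% of the window, from 18.2% to 89.4% of its length. In the RefSeq order the middle of the cluster holds KRT5, the KRT6 genes, the inner root sheath keratins and the epidermal KRT1 and KRT2, but the edges of the empty stretch were not placed between genes. Over the whole control list, 756 of the 36653 stretches between neighbouring peaks of a chromosome (2.06%) were as long, 31 of them on chromosome 12, and the median stretch was 25.9 kb. At the proximal end control peaks covered 24.3% of the length and at the distal end 32.3%. The whole window was covered to 7.85%, beside 5.16% for the control list over the effective genome.

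**Figure D2:**
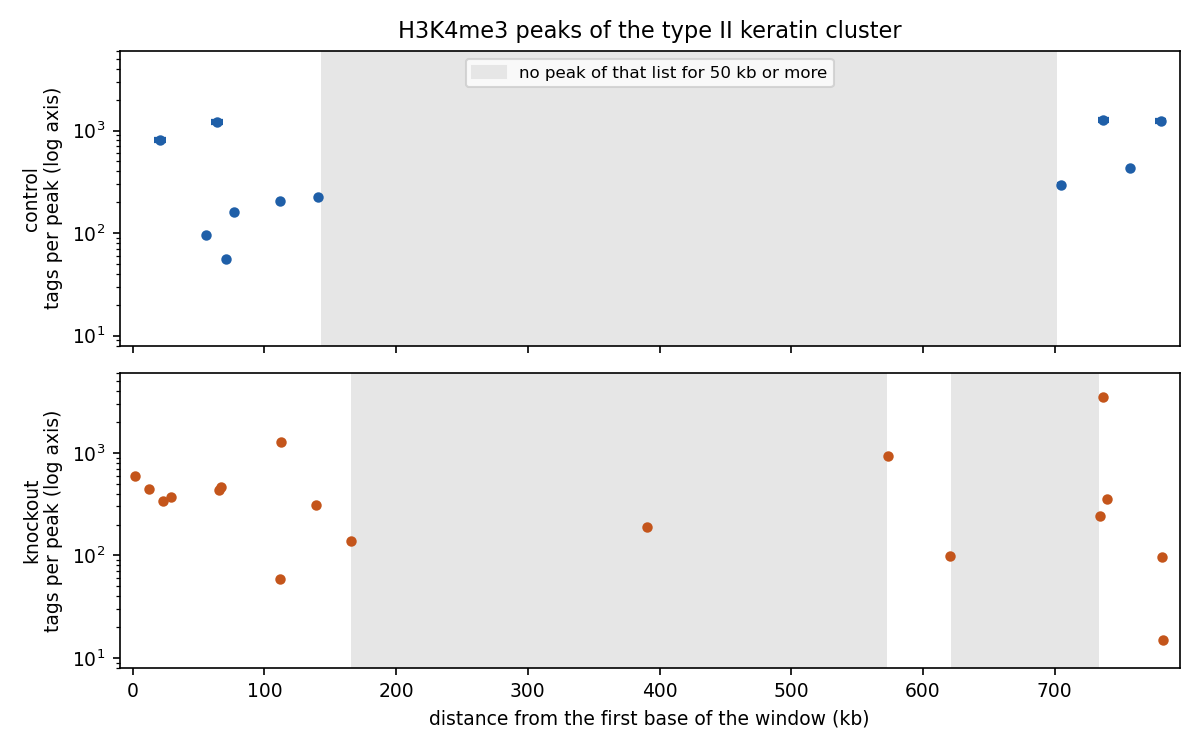
Tags per peak (log axis) against the distance in kb from the first base of the type II window, for control peaks (top) and knockout peaks (bottom), with 1 point per peak at its centre. Grey marks stretches of 50 kb or more with no peak of that list, and the single grey block of the control panel spans 559 kb.

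At the distal end, 4 control domains followed each other. The first, chr12:53264046-53269316, held 295 tags (exact Poisson interval 262 to 331) over 5271 bp. The second, chr12:53294571-53303297, held 1275 tags (1206 to 1347) over 8727 bp and was the strongest control domain of either cluster. Next, chr12:53317104-53321748 held 428 tags (388 to 471) over 4645 bp. The last, chr12:53338421-53346609, held 1233 tags (1165 to 1304) over 8189 bp and ended 391 bp before the edge of the window. This is the part that the window's definition gives to KRT8 and KRT18, the keratin pair of simple epithelia.

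The knockout list met the strongest of these domains very unequally. In chr12:53294571-53303297 it held 3 peaks with 242, 3523 and 353 tags, together 4118 (interval 3993 to 4246). In chr12:53338421-53346609, 35.1 kb further on, it held 2 peaks with 97 and 15 tags, together 112 (92.2 to 135). Control tags of these domains differed 1.03-fold and knockout tags 36.8-fold, the first domain having more in each list. The knockout peaks covered 1990 bp in the first domain and 1032 bp in the second, which gives 2069 and 109 knockout tags per kb, beside 146 and 151 control tags per kb of domain. On the log2 scale, raw knockout over control tags came to 1.69 (1.60 to 1.78) and -3.45 (-3.75 to -3.18). Each of these log2 values spans both libraries and so includes their difference in depth, whereas the 36.8-fold difference lies within the knockout library. The other control domains of the distal end, with 295 and 428 tags, held no knockout peak.

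**Figure D3:**
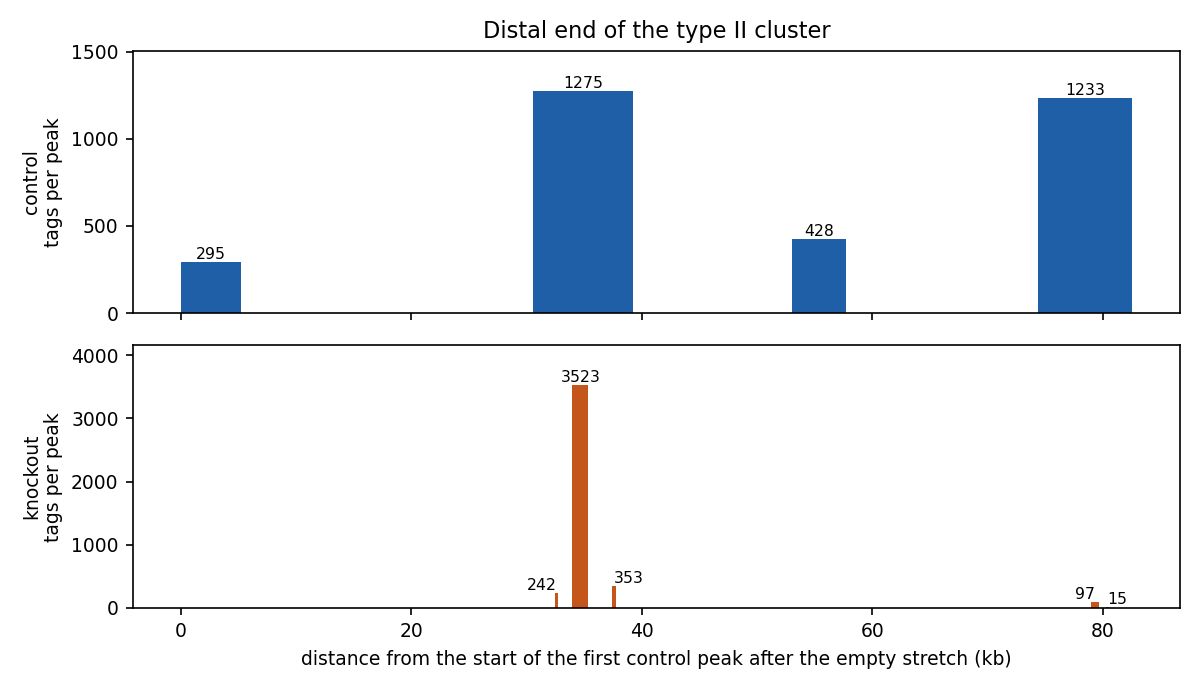
Tags per peak, printed over each bar, against the distance in kb from the first control peak after the empty stretch, for control (top) and knockout (bottom), with bars as wide as the peaks. The control panel has 2 domains of 1275 and 1233 tags, and the knockout panel has 3523 tags at the first of them against 97 and 15 at the second.

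Set beside other strong control domains, these were far apart. Of the 36677 control peaks, 5914 (16.1%) held 1000 tags or more, and 5 of the 30 in the clusters did. The knockout tags inside the 5914 domains, counted as 0 where no knockout peak lay, had a median of 662 with quartiles of 114 and 1384. The domain with 4118 knockout tags had more than 98.7% of them, and the domain with 112 had more than 25%. The knockout peak of 3523 tags, chr12:53298038-53299427, was 1390 bp wide and ranked 52 of 23588 in its list. KRT8 and KRT18 have many processed copies elsewhere in the genome, with 52 and 68 pseudogene entries in RefSeq under their names. How the authors placed tags that match several loci is not stated by the labels or headers, and the part of this in the counts was not tested.

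The proximal end of the type II cluster, which in the gene order starts with KRT80 and KRT7, carried 2 wide control domains among narrower, weaker ones. The domain chr12:52578227-52587295 held 816 tags (761 to 874) over 9069 bp, the widest of this cluster. The domain chr12:52621787-52630737 held 1211 tags (1144 to 1281) over 8951 bp. The other 5 control peaks held 56 to 224 tags, and the last of them, chr12:52701128-52704951 with 224 tags (196 to 255), bordered the empty stretch.

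Knockout peaks were more numerous here than control peaks, at 9 against 7, and 6 of the 9 lay in control peaks. The control peaks chr12:52616281-52618723, chr12:52631925-52634098 and chr12:52637134-52641277 had deposited false discovery rates of 2.37%, 15.26% and 6.83%. The lists also differ in depth and peak width, so these counts are not like for like. The first wide domain held 1 knockout peak of 339 tags and the second held 2, of 435 and 463 tags. The control domain chr12:52671833-52675999, with 206 tags (179 to 236), held a knockout peak of 1266 tags (1197 to 1338) over 717 bp and another of 59 tags. The peak of 308 tags lay in the control peak that borders the empty stretch. The other 3, with 588, 445 and 374 tags, stood 14041, 3789 and 3553 bp from the nearest control peak, and the first 2 of these came before any control peak of the window. Thus the strongest knockout signal of the proximal end was not at its strongest control domain.

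The empty stretch of the control list was not empty in the knockout list. It held 4 knockout peaks, each of exactly 300 bp, with 138, 191, 938 and 98 tags in order of position. The peak of 938 tags (879 to 1000), chr12:53135200-53135499, lay 128547 bp from the nearest control peak and ranked 4160 of 23588. The peak of 191 tags, chr12:52952615-52952914, lay 247664 bp away. These 4 peaks held 1365 of the 9872 knockout tags of the type II window. The knockout list itself had 3 stretches of 50 kb or more without a peak, of 225, 182 and 114 kb, the longest being chr12:52727600-52952614.

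The type I cluster was marked in isolated places, with the empty parts spread along it. Of its 19 control peaks, 2 held 1000 tags or more and the other 17 held 42 to 273, with a median of 92. The pair of strong peaks accounted for 55.2% of the 4343 control tags of the window. Stretches of 50 kb or more without a control peak numbered 6, took up 63.4% of the window and were 52.1, 70.4, 99.5, 225, 93.5 and 74.8 kb long in order of position. The longest, chr17:39298138-39523065, ran from 50.2% to 73.4% of the window, between control peaks of 54 tags (40.6 to 70.5) and 122 tags (101 to 146). In the whole control list 2295 of the 36653 stretches between neighbouring peaks (6.26%) were as long, 39 of them among the 1724 on chromosome 17. Keratin-associated protein genes make up the middle of this cluster in the gene order, but the edges of the stretch were not placed between genes. Control peaks covered 5.86% of the window.

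**Figure D4:**
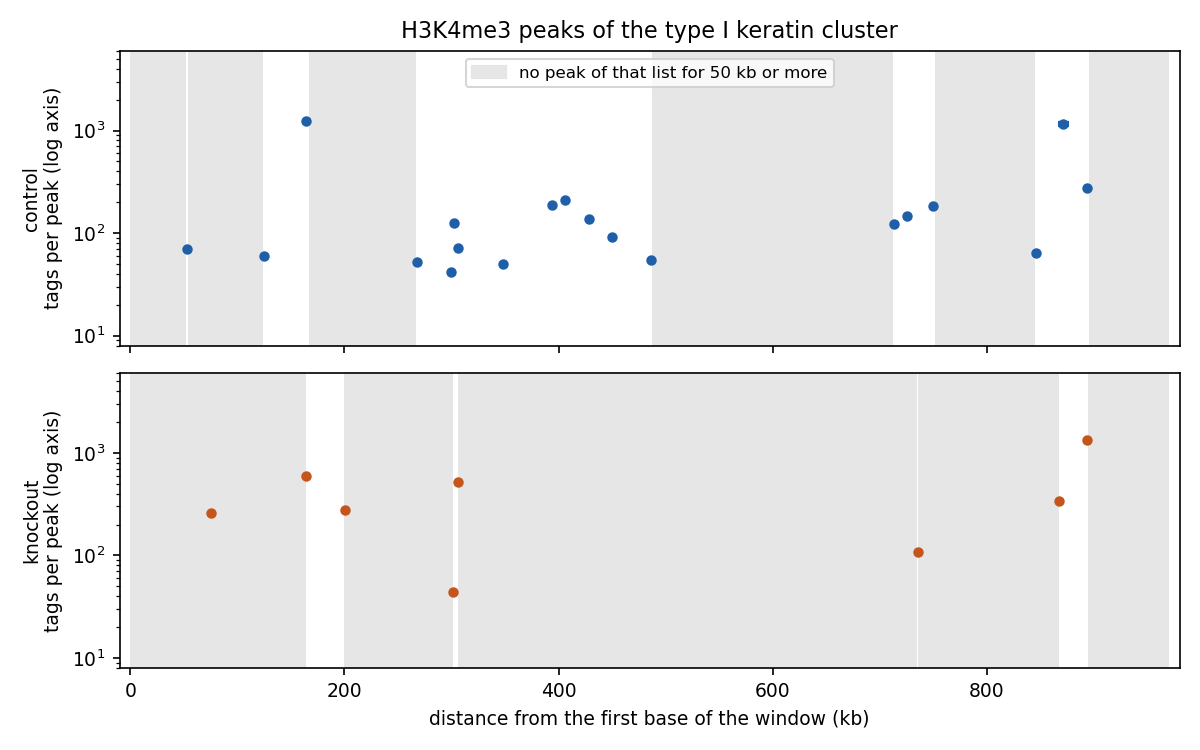
Tags per peak (log axis) against the distance in kb from the first base of the type I window, for control peaks (top) and knockout peaks (bottom), with 1 point per peak at its centre. Grey marks stretches of 50 kb or more with no peak of that list, and the control panel has 6 such stretches along the window, with 2 peaks of 1000 tags or more.

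The first strong domain of the type I cluster was chr17:38972786-38978294, with 1233 tags (1165 to 1304) over 5509 bp. Before it the window held only 2 control peaks, of 70 and 60 tags. The second was chr17:39676974-39687712, with 1165 tags (1099 to 1234) over 10739 bp, the widest domain of both clusters. It lay in the distal part of the window, where the gene order places KRT13, KRT15, KRT19, KRT9, KRT14, KRT16 and KRT17. A smaller domain of 273 tags (242 to 307), chr17:39703045-39706234, was the last one, and the final 74.8 kb of the window held no peak of the control list. No knockout peak lay there either: the last one ended 76.3 kb before the edge.

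Between the first strong domain and the longest empty stretch, 10 weak control peaks were strung over 220 kb, from 39077773 to 39298137. They held 42 to 211 tags with a median of 82, and the highest were chr17:39215081-39219624 with 211 tags (183 to 241) and chr17:39203725-39206025 with 188 (162 to 217). For 8 of the 10 the deposited false discovery rate was over 1%, with a maximum of 40.25%. Beyond the longest empty stretch came 4 more before the next strong domain, with 122, 148, 183 and 64 tags. The last of these, chr17:39655819-39657464, had a rate of 17.42%. In the whole window 13 of 19 control peaks had a rate over 1%, in the type II window 3 of 11, and over the control list 45.4%. At a rate of 1% or less, 6 control peaks of the type I window were left.

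The 8 knockout peaks of the type I cluster were spread over the same places only in part. The most tags, 1325 (1255 to 1398) over 454 bp, were in chr17:39704229-39704682, inside the small last control domain of 273 tags. The first strong control domain held a knockout peak of 598 tags (551 to 648), chr17:38975077-38975376, with its summit 108 bp from the control summit. The widest control domain held 1 of 341 tags (306 to 379), 5566 bp from the control summit. A knockout peak of 514 tags (471 to 560), chr17:39116457-39116931, lay 12 bp from the summit of a control peak of 72 tags.

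The other 4 knockout peaks of this window met no control peak. Those at chr17:38886483-38886782 with 258 tags (227 to 291) and chr17:39011047-39011346 with 276 tags (244 to 311) lay 21387 and 32753 bp away from one, within empty stretches of the control list. The peak at chr17:39546356-39546655 held 107 tags (87.7 to 129) and lay 8201 bp away. The weakest, chr17:39111812-39112111 with 44 tags (32.0 to 59.1), fell in the gap between neighbouring control peaks, 143 bp from the nearer one. Along the string of 10 weak control peaks the knockout list had 1 overlapping peak, and its longest empty stretch, chr17:39116932-39546355, ran over 429 kb and took in 8 whole control peaks.

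Over both clusters, 10 of 30 control peaks held a knockout peak (33.3%, exact Clopper-Pearson interval 17.3 to 52.8%), beside 28.4% of all control peaks. By window the counts were 4 of 19 (21.1%, 6.05 to 45.6%) for type I and 6 of 11 (54.5%, 23.4 to 83.3%) for type II, with overlapping intervals, and the difference between the windows was not tested. More than 1 knockout peak was found in 4 of the 30, each of them in the type II window, beside 7.80% of all control peaks. In the other direction, 15 of 26 knockout peaks lay in a control peak (57.7%, 36.9 to 76.6%), beside 60.3% of all knockout peaks. The 2 shares pooled over both windows were near those of the whole lists. Of the control domains of 1000 tags or more, 5 of 5 in the clusters held a knockout peak, beside 79.8% of the 5914 in the whole list. The 20 control peaks without one held 42 to 428 tags with a median of 109. The control peaks with one held 72 to 1275 tags with a median of 990, so the medians lay far apart although the ranges overlapped. Their median width was 6849 bp, beside 2368 bp for the control peaks without one. Whether overlap goes with tags or with width was not tested.

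**Figure D5:**
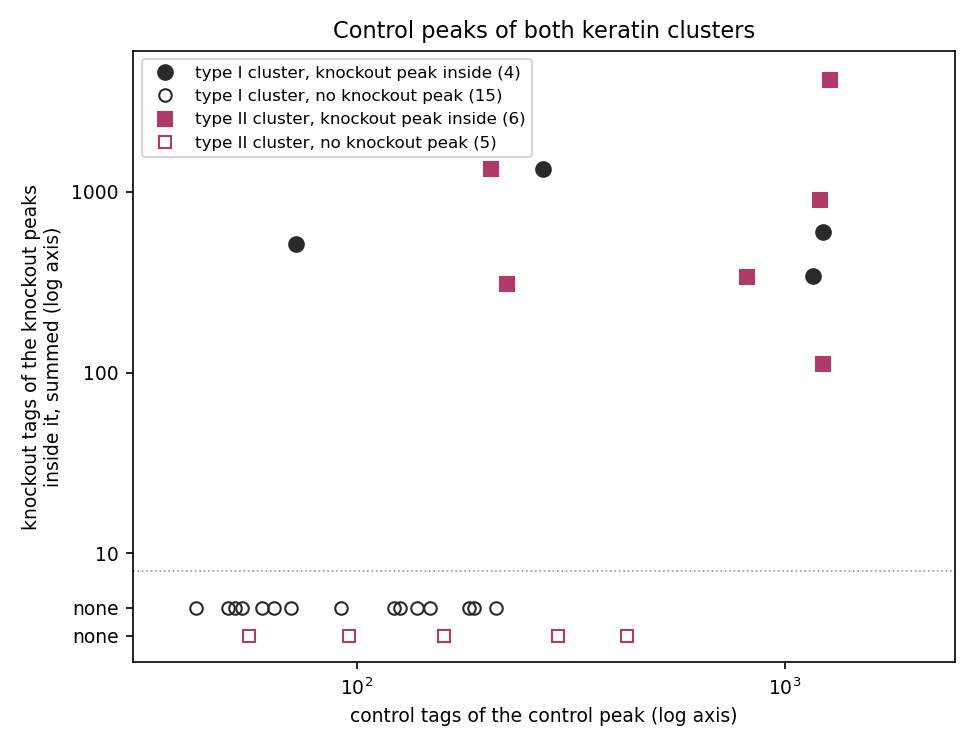
Knockout tags of the knockout peaks inside a control peak, summed, against the control tags of that peak (log axes), with 1 point per control peak of both clusters. Open symbols below the dotted line are control peaks with no knockout peak, 15 of type I and 5 of type II, and among peaks of 1165 to 1275 control tags the filled symbols run from 112 to 4118 knockout tags.

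Where exactly 1 knockout peak matched 1 control peak, tags were compared as log2 of knockout over control after adding a pseudocount of 1. The values were then centred by subtracting the median of all 7552 such pairs. There were 6 pairs in the clusters, which leaves out the 4 domains with more than 1 knockout peak. On this scale chr17:39115889-39117624 stood at 3.27 (2.93 to 3.67) and chr17:39703045-39706234 at 2.73 (2.55 to 2.93). The domain chr17:39676974-39687712 stood at -1.31 (-1.49 to -1.14). The other 3, chr17:38972786-38978294, chr12:52578227-52587295 and chr12:52701128-52704951, stood at -0.59, -0.81 and 0.91. A centred ratio of 1 or more was thus found for 2 of 6, beside 28.7% of all pairs, and of -1 or less for 1 of 6, beside 28.9%. The 3 pairs below 0 had 816 to 1233 control tags and the 3 above had 72 to 273. Control tags are the denominator of the ratio, so this split is not independent of it, and the trend over all pairs was not examined. When tags were taken per kb of peak width, all 6 stood above 0, so the sign of the 3 lower pairs depended on how peak width was treated. The calls depended on the scale too: after division by library totals, uncentred, chr17:39676974-39687712 stood at -0.72 and chr12:52701128-52704951 at 1.51, which left 0 pairs at -1 or less and 3 at 1 or more. Per kb of peak width the counts were also 0 and 3.

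Both clusters carried control peaks at a lower density than the 150 kb on either side of them. The type I window had 19.6 control peaks per Mb against 33.3 in its flanks, and the type II window 14 against 46.7, beside 13.6 per Mb of the effective genome for the whole list. Coverage was 5.86% within and 15.7% beside the type I window, and 7.85% and 20.4% for type II. For knockout peaks the densities were 8.25 and 20 per Mb for type I and 22.9 and 33.3 for type II, beside 8.74 for the whole list. The nearest control peaks outside the windows were chr17:38801299-38806714 with 1494 tags, 4286 bp before the type I window, and chr12:52544955-52547692 with 141 tags, 14308 bp before the type II window. After the windows the next ones lay 22567 bp on, with 364 tags, and 17618 bp on, with 97 tags.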

How the data were processed

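H3K4me3 immunoprecipitates were compared with inputs labelled IgG. Alignment to hg19 with Bowtie2 2.2.4 and peak calling with MACS 1.4.3 are listed in the submitters' processing notes, without their order. Per the file headers, MACS called peaks on each immunoprecipitate against its own input (p cutoff 0.0001, fragment length 300 bp, larger library scaled to the smaller), 1 library each. Tag counts per peak were deposited as raw whole numbers. The deposited score (10 times the negative log10 p), fold ratio over input and false discovery rate in percent were used only as filters within a list. Libraries were grouped by title.

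Windows, bins of 50 kb, stretches without a peak and overlaps of at least 1 bp were computed with numpy 2.4.6, scipy 1.17.1 and pandas 2.3.3 under Python 3.11.15, plotted with matplotlib 3.10.9, and checked with bedtools 2.31.1 and on simulated data. Intervals are exact, at 95%. The members and lists were chosen with earlier results of these data known. Peaks given in full are the knockout peaks (at most 15 per window, otherwise the 8 with most tags), the 6 control peaks with most tags per window and those bounding the longest empty stretch, with further ones named after their values were seen. The promoters printed, the flanks of 150 kb, the limits of 1000 tags, 10 CG and 50 kb for an empty stretch were chosen after the data were examined. The genotype was not tested, as there is 1 library per group. Marker genes of the cell type and peaks at start sites were not analysed here, for want of hg19 gene positions.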

Additional observations from a re-analysis of the deposited data

How the results depend on the processing

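Counts, coverage and stretches were taken as kept within 1.5 times and shares within their counting interval, and 65 of 75 alternative values kept this. Of 18 recomputed ratios of matched pairs, 7 kept within their counting interval, 7 moved and 4 changed sign. With only peaks of a false discovery rate of 1% or less, the type I window held 6 control peaks covering 2.83%, its longest empty stretch was 353 kb, 70.0% of its bins of 50 kb were empty in place of 40%, and 50.0% of its control peaks held a knockout peak. With a MACS p of 1e-10 or less it held 11 control peaks. With overlap of at least 50% of the peak asked for, 0% of control peaks of either window held a knockout peak, as follows from the narrow knockout peaks. With only knockout peaks wider than 300 bp, 100% of the 2 left in the type I window lay in a control peak. Per kb of peak width, 6 matched pairs in place of 3 stood above the median. The ratios turned to 0.59 at chr12:52578227-52587295, 0.09 at chr17:38972786-38978294 and 0.33 at chr17:39676974-39687712, and after division by library totals, uncentred, the second of these was 0.01 and the others -0.21 and -0.72. The pairs at chr17:39115889-39117624 and chr17:39703045-39706234 were 1.62 and 2.02 per kb and 3.87 and 3.33 by library totals, and that at chr12:52701128-52704951 was 1.06 and 1.51. For the settings other than overlap and width, the cause was not tested. For peak counts, coverage, stretches, bins and overlap shares of the type II window, the settings other than overlap of 50% kept the values, among them the 559 kb stretch at both thresholds tried. Alternatives for start sites were not run, and no paired analysis was possible because the result comes from no test and each group has 1 library. Depth limits the weakest peaks, such as the knockout peak of 15 tags (8.40 to 24.7), and the spread between libraries was not measured.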
